A study of Mus musculus with 6 samples.

Results

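The chemokine and chemokine receptor genes of mouse liver were taken by symbol. The rule accepted symbols made of Ccl, Cxcl, Ccr or Cxcr followed by a digit, together with Cx3cl1, Cx3cr1, Xcl1 and Xcr1. It found 58 of the 24421 genes in the count tables, of which 39 encode ligands and 19 encode receptors. The rule itself uses no expression value.

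Chemokines are small secreted proteins that guide leukocytes along concentration gradients. They are grouped by the spacing of their first cysteines into CC, CXC, C and CX3C families, and they act on receptors with 7 membrane-spanning helices that couple to inhibitory G proteins. In the liver, hepatocytes, Kupffer cells (the resident macrophages), sinusoidal endothelium and stellate cells can all release them. Ligands of the receptor CCR2 draw monocytes from the blood, ligands of CXCR2 draw neutrophils, and ligands of CXCR3 draw T and NK cells.

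Liver RNA was sequenced from mice of the Townes sickle cell line at 7 months of age, with 3 libraries of each genotype. Every mouse carried human alpha-globin in place of the mouse genes (allele Hbatm1(HBA)Tow). SS mice carried the sickle beta-globin allele Hbbtm2(HBG1,HBB*)Tow without a normal one, whereas AS mice, the controls, combined it with Hbbtm3(HBG1,HBB)Tow, which holds normal beta-globin. Sex, litter and batch are not in the labels. Nothing there ties a replicate to an animal of its own, so the spread that p-values rest on is that between libraries and may be technical. Whole liver was used, so fewer cells of a type and less RNA per cell cannot be told apart.

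Libraries held 6670011 to 13700194 gene reads. Hepatocyte markers were abundant in every library, as the liver label requires, and the 10 on the list summed to 102191 to 157131 CPM (read counts scaled to a common library size) in AS and 89825 to 131662 CPM in SS. The counts of AS replicates 2 and 3 were the most alike (chi-square 4.02 per gene, and 28.1 to 171 between the other pairs of libraries). They differed by more than sampling noise, and both were kept, but this does not show that they came from separate animals. In all, 12622 genes had enough reads to test, and edgeR called 122 of them (115 higher and 7 lower in SS) at a Benjamini-Hochberg adjusted p under 0.05.

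The 3 upstream sequences are shown because they belong to Cxcl14, the ligand gene that was called, and to Ccl6 and Ccl9, neighbouring genes whose levels in SS lay on opposite sides of those in AS. Each runs 5′ to 3′ over the 200 bases before the RefSeq transcription start on build GRCm38.p6 and stops at the start. Capitals mark letters matched by a motif search on both strands. The motifs were the ETS core GGAAGT, the TATA box TATAAA, the STAT pattern TTCNNNGAA, the C/EBP pattern TTGCNNCAA, and the interferon response and NF-kB consensus patterns.
Cxcl14 (chr13:56296552-56296751, minus strand): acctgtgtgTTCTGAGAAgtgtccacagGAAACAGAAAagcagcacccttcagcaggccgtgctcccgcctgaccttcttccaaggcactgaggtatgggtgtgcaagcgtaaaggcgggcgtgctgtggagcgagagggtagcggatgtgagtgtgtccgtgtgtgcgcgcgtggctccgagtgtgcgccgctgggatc
Ccl6 (chr11:83593088-83593287, minus strand): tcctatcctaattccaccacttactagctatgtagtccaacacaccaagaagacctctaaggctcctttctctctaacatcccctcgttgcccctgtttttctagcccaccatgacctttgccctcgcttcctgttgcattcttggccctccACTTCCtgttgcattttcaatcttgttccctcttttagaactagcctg
Ccl9 (chr11:83578637-83578836, minus strand): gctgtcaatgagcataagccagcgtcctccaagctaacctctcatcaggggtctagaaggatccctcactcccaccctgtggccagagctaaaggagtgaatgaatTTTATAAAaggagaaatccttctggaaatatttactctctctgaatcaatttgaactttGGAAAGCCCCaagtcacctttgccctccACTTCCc

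In these letters, Cxcl14 held a STAT match 191 bases and an interferon response match 172 bases before its start, and neither of these stood in the upstream windows of Ccl6 or Ccl9. Ccl6 and Ccl9 each held the reverse complement of the ETS core, 48 and 7 bases before the start. Ccl9 alone of the 3 held TATAAA, on both strands in 1 overlapping stretch, and an NF-kB match 35 bases before the start. Aligned locally over RefSeq windows that reach a little past the start, Ccl6 and Ccl9 shared 59 of 74 aligned positions (79.7%). Such an alignment keeps only the best stretch of each pair. For Ccl6 and Cxcl14 it gave 16 of 21 (76.2%), and for Ccl9 and Cxcl14 37 of 59 (62.7%), over shorter stretches. Of the 58 genes, 42 matched a RefSeq window, with 49 windows in all. Over the 250 bases before the start, the NF-kB consensus stood in 8 of those 49 (16.3%) and in 3.90% of all 32851 windows, and the ETS core in 17 (34.7%) and 19.7%. TATAAA stood in 13 (26.5%) and 12.4%, the STAT pattern in 4 (8.16%) and 7.02%, the interferon response pattern in 3 (6.12%) and 2.98%, and the C/EBP pattern in 2 (4.08%) and 1.74%. A match describes letters, not a bound site. The 8 genes with an NF-kB match were Ccl9, Ccl20, Ccr3, Ccr6, Cxcl1, Cxcl2, Cxcl3 and Cxcl10.

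Many of the 58 genes had few or no counts in whole liver. Of these, 9 had 0 counts in all 6 libraries: the ligand genes Ccl21a, Ccl21b, Ccl21c, Ccl26, Ccl27b and Cxcl15, and the receptor genes Ccr1l1, Ccr8 and Cxcr1. A count of 0 over all libraries allows up to 0.0490 CPM. The Ccl21 genes, and Ccl27a and Ccl27b, are near copies, and reads that match several copies can be lost in counting, so the zeros of Ccl21a, Ccl21b, Ccl21c and Ccl27b are uncertain. A further 12 genes had 1 to 9 counts over all libraries and 37 had more. AS replicates 1, 2 and 3 had at least 1 count for 33, 35 and 37 of the genes, and SS replicates 1, 2 and 3 for 42, 42 and 38. Expected numbers were then scaled to the gene reads of the shallowest library. They were 31.7, 35.0 and 34.4 in AS and 41.8, 39.9 and 36.7 in SS, so the AS range lay below the SS range by a small margin. The factors that scale library sizes (TMM) were 0.834 to 0.967 in AS and 1.01 to 1.21 in SS. Equal gene reads were therefore not equal scaled depth. Detection over all genes was not counted, so this difference is not read as one of chemokine genes. At a limit of 10 counts, the ranges were 20 to 24 in AS and 22 to 33 in SS and overlapped, as did those at 1 CPM, with 21 to 23 and 18 to 31. After the filter on low counts, 27 genes were tested, 17 ligands and 10 receptors.

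Ccl9 and Cxcl12 supplied most of the chemokine reads. Together they made up 81.9%, 83.0% and 83.0% of all counts of the 58 genes in the AS replicates and 69.7%, 61.8% and 75.3% in the SS replicates. Per kilobase of annotated exon, Ccl9 stood highest in AS at 73.2 CPM per kilobase, followed by Cxcl12 at 42.8, Cxcl13 at 12.5 and Ccl6 at 8.70. In SS, the order was Ccl9 at 51.4 CPM per kilobase, Cxcl12 at 34.4, Ccl6 at 28.3, Ccl24 at 7.81 and Cxcl14 at 7.78, and Cxcl13 stood at 2.21. Exon lengths were merged over all annotated transcripts, at 8176 bases for Cxcl12 and 3045 for Ccl9. In CPM, not divided by length, Cxcl12 stood above Ccl9, with means of 350 and 223 in AS and 281 and 156 in SS. The order of Ccl9 and Cxcl12 thus rests on the length used. No receptor gene reached 1 CPM per kilobase in AS. In SS the highest receptor level was that of Cxcr4, at 3.23 CPM per kilobase. Ccr2 stood at 1.12 CPM per kilobase there. The spread over libraries is given with each gene below in CPM, and the closest of these neighbours, such as Ccl24 and Cxcl14 in SS, did not differ beyond it.

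**Figure D1:**
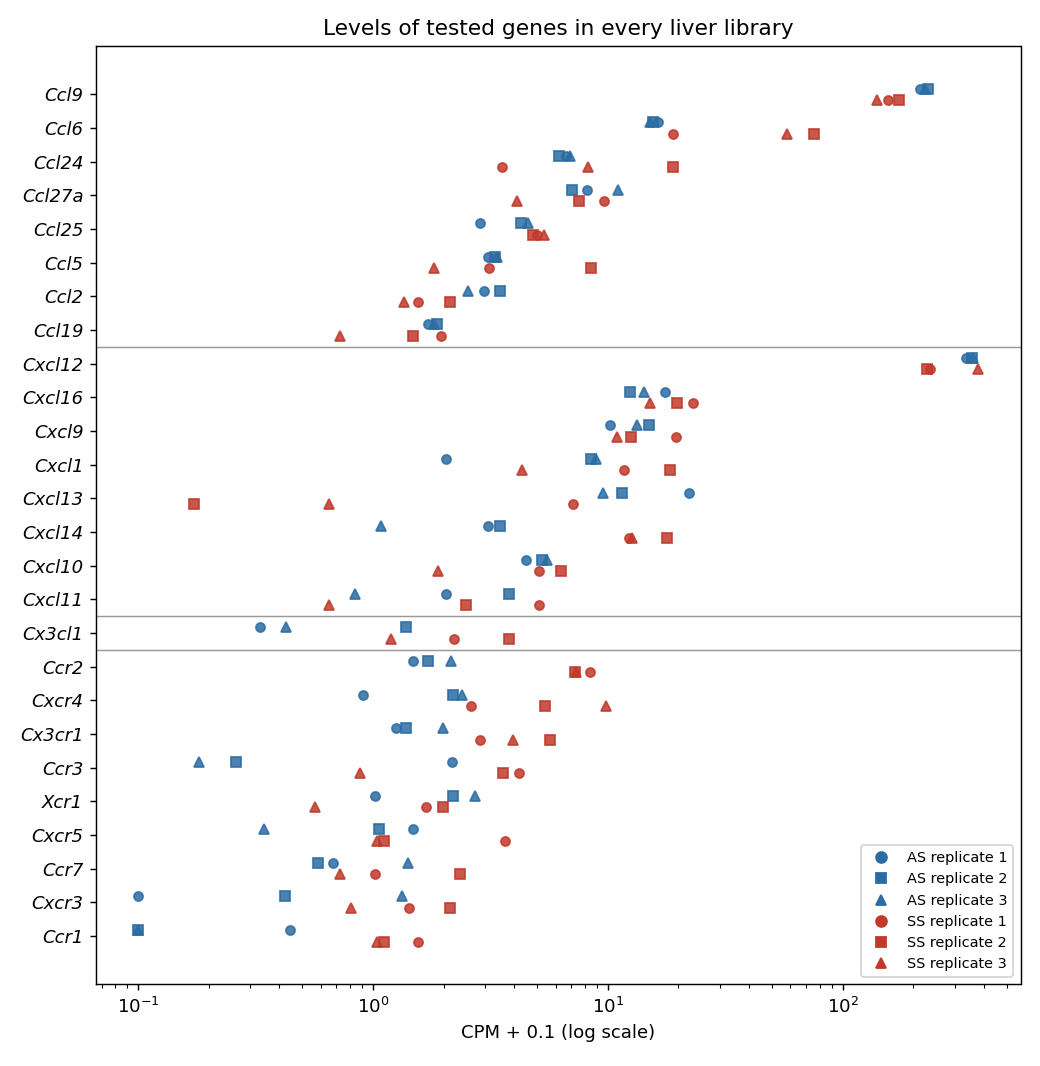
Levels of 26 of the 27 tested genes in each of the 6 libraries, as CPM plus 0.1 on a log axis, with AS in blue, SS in red and a marker shape for each replicate. Rows run through CC ligands, CXC ligands, Cx3cl1 and receptors. Ccl9 and Cxcl12 lie above 140 CPM in all libraries, while no receptor plotted exceeds 9.70 CPM.

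Compared with AS liver, SS liver had more RNA of the chemokine Cxcl14 and of the monocyte receptor Ccr2, and these were the 2 of 27 tested genes that were called. Both were called higher. Across all 12622 genes tested, the same rule called 0.967%, with 0.911% higher and 0.0555% lower. Neither gene was called by limma-voom. When single libraries were left out, Ccr2 was never called, and Cxcl14 only without SS replicate 3. Fitted values were higher in SS for 19 of the 27 genes, against 56.3% of all genes, and their median log2 change was 0.64, against 0.08 over all genes. At an unadjusted p under 0.05, 7 of the 27 were higher (9.12% of all genes) and 1 was lower (3.58%). Values of the groups did not overlap for 7 genes that were higher in SS (12.1% of all genes) and 3 that were lower (9.04%). Some of the 27 genes, such as Ccr1 and Cx3cl1, passed the filter on low counts through their SS counts. These counts of genes and the median therefore lean towards SS and support no statement about the whole family.

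**Figure D2:**
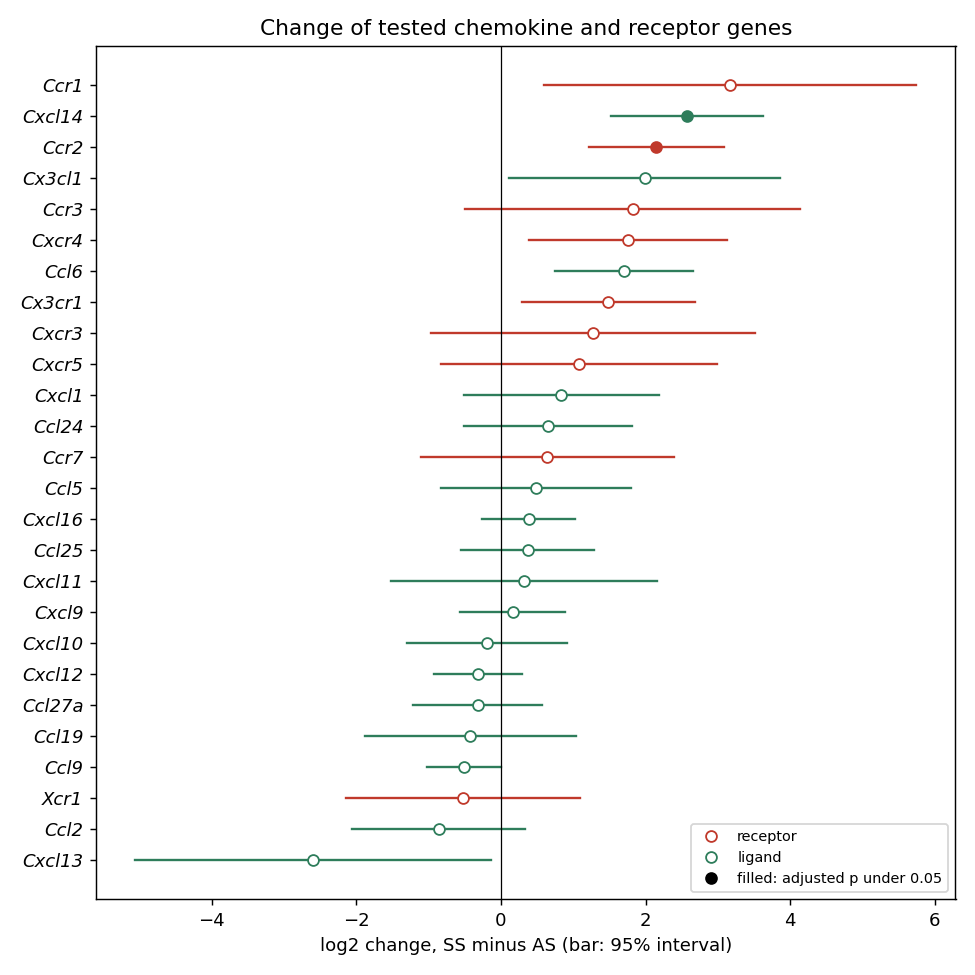
Log2 change from AS to SS with its 95% interval for 26 of the 27 tested genes, with receptors in red and ligands in green. Filled points, Cxcl14 and Ccr2, have an edgeR adjusted p under 0.05. Of the 9 receptors plotted, 8 lie above 0, the exception being Xcr1.

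Of the 8 CXC ligands tested, edgeR called 1 higher and 0 lower, against 0.911% and 0.0555% of all genes. Fitted values were higher in SS for 5 of the 8. Cxcl14 (chromosome 13, 56288643 to 56296551, minus strand, mm10) encodes a conserved chemokine that is made by epithelia and fibroblasts in the absence of inflammation. It had 2.99, 3.38 and 0.981 CPM in AS replicates 1, 2 and 3 and 12.3, 17.8 and 12.6 CPM in SS replicates 1, 2 and 3. Every SS library lay above every AS library, and the lowest SS value was far above the highest AS value. The means were 2.45 ± 1.29 and 14.2 ± 3.08 CPM (SD, n = 3), a 5.94-fold rise and a log2 change of 2.57 (SE 0.474). The 95% interval ran from 1.52 to 3.62, and the edgeR adjusted p was 0.0380. The fitted change was 2.15 to 2.84 when single libraries were left out, but the call remained only without SS replicate 3 (edgeR adjusted p = 0.0484). It was lost without AS replicate 1, 2 or 3 (0.113, 0.108 and 0.109) or SS replicate 1 or 2 (0.0705 and 0.173), and by limma-voom (0.0606), while DESeq2 called it (adjusted p = 0.000383). With AS replicates 2 and 3 summed, Cxcl14 was not called (edgeR adjusted p = 0.0738), in a fit that called 0.236% of all genes. Over all genes, the fits without AS replicate 1, 2 or 3 called 0.167%, 0.197% and 0.290%, those without SS replicate 1, 2 or 3 called 0.712%, 0.200% and 0.768%, limma-voom called 0.246% and DESeq2 2.52%.

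Fibroblast and stellate cell markers stood higher beside Cxcl14. Of 9 tested, edgeR called Col1a2 and Lum higher, DESeq2 called 3 and limma-voom 2. All 9 had higher fitted values, with sums of 373 to 440 CPM in AS and 482 to 759 CPM in SS. Their part in the Cxcl14 value was not tested.

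Cxcl13, which attracts B cells through CXCR5, had the most negative fitted change of the 27 genes. Its values were 22.1, 11.4 and 9.40 CPM in the AS replicates and 6.99, 0.0725 and 0.548 CPM in the SS replicates. All SS values lay below all AS values, but SS replicate 1 was much nearer to AS than the other SS libraries, which had 1 and 7 counts. Cxcl13 was not called (log2 change -2.60 ± 1.09 SE, 95% interval -5.06 to -0.14, edgeR adjusted p = 0.372). Without SS replicate 1 it was called, with a log2 change of -5.51 (edgeR adjusted p = 0.0197). Its receptor gene Cxcr5, which overlaps Bcl9l on the other strand, had 1.38, 0.967 and 0.245 CPM in AS and 3.56, 1.02 and 0.939 CPM in SS, overlapping ranges in which SS replicate 1 was highest (log2 change 1.08, edgeR adjusted p = 0.618). B cell markers, of which edgeR called 0 of 5 tested (2 at an unadjusted p under 0.05, 0 by DESeq2 and by limma-voom), summed to 4.67 to 7.49 CPM in AS and 13.6 to 28.1 CPM in SS, and their part in these values was not tested.

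Cxcl12, which keeps stem cells and lymphocytes in place through CXCR4, had 335, 356 and 359 CPM in AS and 235, 230 and 379 CPM in SS. SS replicates 1 and 2 lay below AS, and SS replicate 3 lay above it. The fitted change, -0.32 ± 0.277 (SE) on the log2 scale, was not called (95% interval -0.93 to 0.30, edgeR adjusted p = 0.654), and it was -0.60 without SS replicate 3 (edgeR adjusted p = 0.188). In a fit chosen after the data had been seen, which left out SS replicate 3 and AS replicate 1, Cxcl12 was called lower (-0.62, edgeR adjusted p = 0.0382). That fit called 5.21% of all genes. Markers of sinusoidal endothelium, of which edgeR called 0 of 8 (1 at an unadjusted p under 0.05, 1 by DESeq2 and 0 by limma-voom), summed to 268 to 387 CPM in AS and 252 to 459 CPM in SS, highest in SS replicate 3, and their part in the Cxcl12 values was not tested. Its receptor gene Cxcr4 went the other way in fitted value, as given with the receptors.

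Of the ligands of CXCR3 and CXCR2, 4 were tested, and all 4 overlapped between the genotypes. Cxcl9, Cxcl10 and Cxcl11, which interferon gamma induces, summed to 16.5, 23.7 and 19.4 CPM in the AS replicates and 29.6, 21.1 and 13.2 CPM in the SS replicates. Cxcl9 had 10.1, 14.8 and 13.2 CPM in AS and 19.5, 12.5 and 10.9 CPM in SS, Cxcl10 had 4.38, 5.15 and 5.40 and 5.01, 6.24 and 1.80 CPM, and Cxcl11 had 1.96, 3.70 and 0.736 and 5.01, 2.39 and 0.548 CPM. In each gene the ranges overlapped. Their log2 changes were 0.16, -0.20 and 0.32, with 95% intervals of -0.56 to 0.89, -1.30 to 0.91 and -1.52 to 2.16. A 2-fold lower value lay inside the intervals of Cxcl10 and Cxcl11, and a 2-fold higher value inside that of Cxcl11. Each of these signs turned when 1 SS library was left out (Cxcl9 -0.13 and Cxcl11 -0.49 without SS replicate 1, Cxcl10 0.17 without SS replicate 3), as did Cxcl11 without AS replicate 3 (-0.12), and Cxcl10 was 0.03 when scaled by library totals alone. Cxcl11 is annotated as a polymorphic pseudogene in mouse, and Cxcl10 and Cxcl11 overlap Art3 on the other strand.

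Cxcl1, a ligand of CXCR2 that recruits neutrophils, had 1.96, 8.38 and 8.83 CPM in AS and 11.6, 18.3 and 4.23 CPM in SS. AS replicate 1 and SS replicate 3 were the lowest of their groups, and the ranges overlapped (log2 change 0.83, SE 0.609, edgeR adjusted p = 0.587). The other ligands of this group were below the filter. Cxcl2 had 0, 0 and 2 counts in AS and 2, 29 and 5 in SS, and the summed rate in SS was 14.3 times that in AS (95% interval from counting error 3.68 to 123). All SS libraries lay above all AS libraries, but without SS replicate 2 the ratio was 4.66, with an interval of 0.888 to 46.0. Without AS replicate 3, which held both AS counts, the SS rate of Cxcl2 was 5.23 times that of a floor of 3 counts. The lower 95% limit of the ratio was then 4.04. Cxcl5 had 1, 0 and 3 counts in AS and 5, 23 and 0 in SS, Cxcl3 had 1 count in all, and Cxcl15 had 0. SS replicate 2 held most of the Cxcl2 and Cxcl5 reads. Of their receptors, Cxcr2 had 4 counts, all in AS replicate 2, and Cxcr1 had 0. Of 8 neutrophil markers tested, edgeR called 2 higher, DESeq2 called 6 and limma-voom 0. The neutrophil markers summed to 8.54 to 11.1 CPM in AS and 35.8 to 123 CPM in SS. Their part in the ligand values was not tested.

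Cxcl16, a membrane-bound ligand of CXCR6 that macrophages and endothelium carry, had 17.5, 12.4 and 14.1 CPM in AS and 23.1, 19.6 and 15 CPM in SS. The ranges overlapped (log2 change 0.38, 95% interval -0.26 to 1.03, edgeR adjusted p = 0.596). Cxcr6, found on liver-resident lymphocytes, was below the filter with 5, 4 and 10 counts in AS and 16, 30 and 2 in SS. Cxcl17 had 4 counts, all in AS replicate 3.

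**Figure D3:**
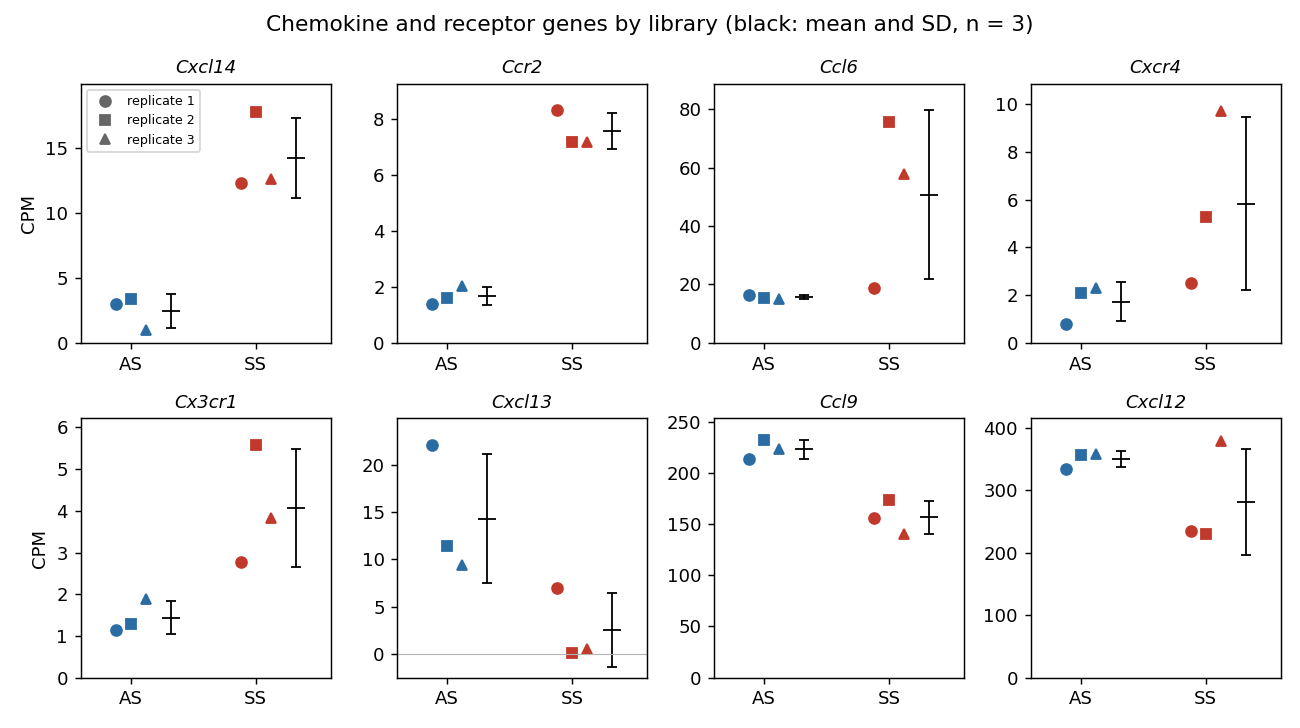
CPM of 8 genes in each library, with 1 marker shape per replicate and the mean and SD of 3 libraries in black; every panel has its own linear axis. Cxcl14 and Ccr2 show wide gaps between AS and SS. Ccl6 has 1 SS library near AS, and Cxcl12 has 1 SS library above AS.

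Among CC ligands, the neighbours Ccl6 and Ccl9 lay on opposite sides, and edgeR called 0 of 8 (1 at an unadjusted p under 0.05, 1 by DESeq2 and 0 by limma-voom). Ccl6 and Ccl9 bind CCR1 and are made by macrophages and other myeloid cells. Ccl6 (chromosome 11, 83587882 to 83593087, minus strand) had 16.4, 15.5 and 15 CPM in AS and 18.9, 75.5 and 57.8 CPM in SS. The AS libraries were alike, SS replicate 1 lay just above them, and SS replicates 2 and 3 lay far above. The means were 15.6 ± 0.668 and 50.7 ± 29.0 CPM (SD, n = 3), with a log2 change of 1.70 and an SE of 0.429. At an edgeR adjusted p of 0.116, Ccl6 was not called, with a 95% interval of 0.75 to 2.65. DESeq2 called it (adjusted p = 0.0142), and so did edgeR without SS replicate 1 (log2 change 2.09, adjusted p = 0.0144). Ccl6 overlaps E230016K23Rik on the other strand, and the strand setting of the counting is not given in the sources used here.

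Ccl9 (chromosome 11, 83572919 to 83578636, minus strand) had 214, 232 and 223 CPM in AS and 156, 173 and 141 CPM in SS. All SS libraries lay below all AS libraries, by less than 2-fold. Ccl9 was not called (log2 change -0.51 ± 0.234 SE, 95% interval -1.03 to 0.0072, edgeR adjusted p = 0.402). Leaving out single libraries gave -0.60 to -0.45, without a call. Scaling by library totals alone moved the median of all genes by 0.28 on the log2 scale, and Ccl9 then stood at -0.25 and Cxcl12 at -0.02.

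Kupffer cell markers, which mark another source of these ligands, had 0 of 10 called by edgeR (5 at an unadjusted p under 0.05, 0 by DESeq2 and by limma-voom) and summed to 768 to 1027 CPM in AS and 899 to 2248 CPM in SS, highest in SS replicate 2. Their part in the ligand values was not tested. SS replicate 2 was also the highest SS library for Ccl6, Ccl5 and Ccl24. Ccl24, a ligand of CCR3 on eosinophils, had 6.56, 6.12 and 6.79 CPM in AS and 3.43, 18.8 and 8.14 CPM in SS. Ccl5, which T cells, NK cells and platelets release, had 2.99, 3.22 and 3.27 and 3.03, 8.41 and 1.72 CPM. For both genes the AS libraries were nearly equal and the SS libraries spread on either side of them. Without SS replicate 2 their fitted changes were -0.16 and -0.44, against 0.65 and 0.48 with it. Ccl3 and Ccl4, which macrophages release on activation, were below the filter, with 3 and 9 counts in AS and 20 and 27 in SS, and all but 2 of the SS counts of Ccl4 fell in SS replicate 2.

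CCR2 ligands were low in both genotypes. Ccl2, the main monocyte attractant, had 2.88, 3.38 and 2.45 CPM in AS and 1.45, 2.03 and 1.25 CPM in SS. All SS values lay below the AS values (log2 change -0.86, SE 0.543, 95% interval -2.07 to 0.34, edgeR adjusted p = 0.526), and the gene was not called. Ccl7 had 4, 1 and 9 counts in AS and 1, 2 and 0 in SS, and the summed rate in SS was 0.170 of that in AS (95% interval from counting error 0.0314 to 0.610). Leaving out AS replicate 3 gave a ratio of 0.262, with an interval of 0.0406 to 1.34 that includes 1. Leaving out SS replicate 2 gave 0.0952 (0.00225 to 0.625), and leaving out SS replicate 3 gave 0.272 (0.0501 to 0.974). Ccl8 had 3 counts in AS and 4 in SS, and Ccl12 had 0 and 5. The 4 ligands summed to 3.34, 3.54 and 3.43 CPM in the AS replicates and 1.85, 2.54 and 1.41 CPM in the SS replicates.

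The remaining CC ligands that were tested attract lymphocytes and did not pass the test. Ccl25, a ligand of CCR9, had 2.76, 4.19 and 4.50 CPM in AS and 4.88, 4.71 and 5.24 CPM in SS, groups that did not overlap by a narrow margin (log2 change 0.37, 95% interval -0.55 to 1.29). Ccl27a, a ligand of CCR10, had 8.06, 6.93 and 11 and 9.50, 7.47 and 3.99 CPM, and Ccl19, a ligand of CCR7, had 1.61, 1.77 and 1.72 and 1.85, 1.38 and 0.626 CPM, with overlap in each case. Ccl25, Ccl27a and Ccl19 had edgeR adjusted p-values of 0.730, 0.759 and 0.811. All 3 overlap a gene on the other strand (Elavl1, Il11ra1 and 4930578G10Rik). Ccl17, which attracts T cells through CCR4, was among the CC ligands below the filter. It had 0 counts in every AS library and 3, 20 and 2 in SS. The SS rate was 6.62 times that of a floor of 3 counts over the AS group. The lower 95% limit of the SS to AS ratio, from counting error, was 4.99. SS replicate 2 held 20 of the 25 counts, and without it the multiple of the floor was 2.22 and the lower limit 1.22. Without AS replicate 3 they were 3.63 and 2.74. Ccl22, which shares CCR4, had 17 counts in AS and 19 in SS. Ccl1, Ccl11, Ccl20 and Ccl28 had 0 or 1 counts in AS and 2 to 4 in SS.

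Fitted values were higher in SS for 9 of the 10 receptor genes that passed the filter (56.3% of all genes). Their median log2 change was 1.38, and that of all genes was 0.08. The medians of the 8 CC and the 8 CXC ligands tested were 0.03 and 0.24. The difference between receptors and ligands was not tested. The 19 receptors summed to 17.7, 15.8 and 18.6 CPM in the AS replicates and 37.7, 41.0 and 42.5 CPM in the SS replicates. The groups were well apart. Without Ccr2, the sums were 14.2 to 16.6 CPM in AS and 29.4 to 35.3 CPM in SS. Some receptors, such as Ccr1, passed the filter through their SS counts, so the count of 9 and the median lean towards SS and support no statement about all receptors. The 9 receptors that did not pass it summed to 0.900 to 1.61 CPM in AS and 0.861 to 4.62 CPM in SS, which overlapped.

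**Figure D4:**
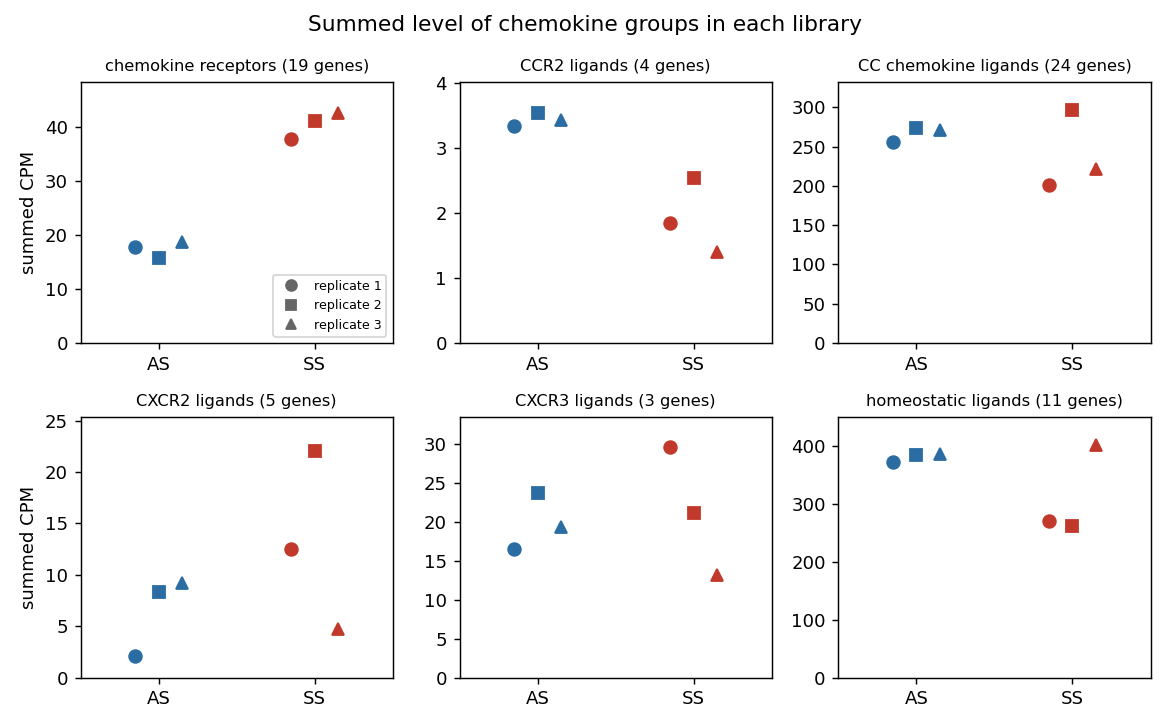
Summed CPM of 6 groups of chemokine genes in each library, on linear axes that start at 0, with AS in blue and SS in red. The receptor sums are 15.8 to 18.6 CPM in AS and 37.7 to 42.5 CPM in SS, while the CCR2 ligand sums are 3.34 to 3.54 and 1.41 to 2.54 CPM.

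Ccr2 (chromosome 9, 124101950 to 124113557, plus strand), the receptor by which inflammatory monocytes leave the marrow and enter tissue, was the called receptor. It had 1.38, 1.61 and 2.04 CPM in the AS replicates and 8.31, 7.18 and 7.20 CPM in the SS replicates. The SS libraries lay within a narrow band and all stood above the AS libraries. The means were 1.68 ± 0.336 and 7.56 ± 0.649 CPM (SD, n = 3), a 4.44-fold rise with a log2 change of 2.15 (SE 0.420). Its 95% interval ran from 1.22 to 3.08, and the edgeR adjusted p was 0.0462. The change was 2.02 to 2.33 when single libraries were left out, and none of those 6 fits called it (edgeR adjusted p = 0.0687 to 0.231). Median-ratio scaling, which called 0.840% of all genes, gave 0.0507 and limma-voom 0.101, while DESeq2 called it (adjusted p = 0.00584). With AS replicates 2 and 3 summed, Ccr2 was not called (edgeR adjusted p = 0.192).

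Some markers of monocytes and recruited macrophages stood higher beside Ccr2. Of 13 tested, edgeR called Itgax, Trem2, Gpnmb and Mmp12 higher, DESeq2 called 5 and limma-voom 0. The median log2 change of the 13 was 1.28. Fn1, which hepatocytes also make, held most of their summed level of 1430 to 1907 CPM in AS and 1200 to 2091 CPM in SS, and without Fn1 the sums were 180 to 266 CPM and 267 to 657 CPM. None of the 13 was at 0 in all libraries. Ly6c2, a surface marker of the inflammatory monocyte that was picked out after its values were seen, had 0.576, 0.967 and 2.13 CPM in AS and 1.72, 4.21 and 1.72 CPM in SS, which overlapped (log2 change 1.03, edgeR adjusted p = 0.556). The part of monocyte number in the Ccr2 value was not tested.

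Cx3cr1, the fractalkine receptor, which monocytes and macrophages also carry, had a higher fitted value and was not called. It had 1.15, 1.29 and 1.88 CPM in AS and 2.77, 5.58 and 3.83 CPM in SS. The groups did not overlap (log2 change 1.48, SE 0.540, edgeR adjusted p = 0.292). The gene models of Cx3cr1 and Ccr9 span several neighbours, so reads may be shared there. The ligand itself, Cx3cl1, a membrane-tethered ligand of endothelium and epithelium, had 0.230, 1.29 and 0.327 CPM in AS and 2.11, 3.70 and 1.1 CPM in SS, where AS replicate 2 overlapped SS replicate 3 (log2 change 1.99, SE 0.847, edgeR adjusted p = 0.371). Cholangiocyte markers, of which edgeR called 0 of 3 tested (0 at an unadjusted p under 0.05 and 0 by the other tools), summed to 9.16 to 17.4 CPM in AS and 8.76 to 34.0 CPM in SS.

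Ccr1, a receptor of Ccl6 and Ccl9 on myeloid cells, had 3, 0 and 0 counts in the AS replicates and 11, 14 and 12 in the SS replicates. SS libraries were alike and above every AS library, and the summed rate in SS was 9.79 times that in AS (95% interval from counting error 3.10 to 49.7). The ratio was 5.38 without AS replicate 3. Without AS replicate 1, which held every AS count, the SS rate of Ccr1 was 6.66 times that of the floor of 3 counts. The lower 95% limit of the ratio was then 5.15. The fit over libraries gave an edgeR adjusted p of 0.293, so Ccr1 was not called.

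Cxcr4, the CXCL12 receptor of stem cells and most leukocytes (chromosome 1, 128588199 to 128592293, minus strand), had 0.806, 2.09 and 2.29 CPM in AS and 2.51, 5.29 and 9.70 CPM in SS. SS replicate 1 lay just above AS replicate 3, and SS replicate 3 was the highest. Cxcr4 was not called (log2 change 1.75 ± 0.617 SE, 95% interval 0.39 to 3.12, edgeR adjusted p = 0.275), and its change was 1.17 without SS replicate 3. Red cell precursor markers summed to 45.6 to 63.8 CPM in AS and 245 to 482 CPM in SS. Of 7 tested, edgeR called 3 higher, DESeq2 called 4 and limma-voom 2. Genes of dividing cells summed to 9.99 to 14.4 CPM in AS and 99.4 to 176 CPM in SS. Of 10 tested, edgeR called 8 higher, DESeq2 called 10 and limma-voom 1. The part of either marker set in the Cxcr4 value was not tested.

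Receptors of lymphocytes, dendritic cells and eosinophils were low and not called. Ccr3, an eosinophil receptor, had 18, 1 and 1 counts in AS and 31, 48 and 10 in SS, and AS replicate 1 overlapped SS (log2 change 1.82, SE 1.05, edgeR adjusted p = 0.493). In the fit without AS replicate 1 and SS replicate 3 it was called (4.94, edgeR adjusted p = 0.0205). The granule protein genes that define eosinophils, Prg2 and Epx, were at 0 in all AS libraries and in 2 of 3 SS libraries each. The whole list of 8 eosinophil and mast cell markers, with Tpsb2 at 0, summed to 0.967 to 3.57 CPM in AS and 3.12 to 6.73 CPM in SS, most of it from Kit, the 1 tested gene, which edgeR did not call (log2 change 1.06, adjusted p = 0.484). Their part in the Ccr3 value was not tested. Ccr7, which leads dendritic and T cells to lymph nodes, had 0.576, 0.483 and 1.31 CPM in AS and 0.924, 2.25 and 0.626 CPM in SS. Cxcr3, the receptor of activated T cells, had 0, 0.322 and 1.23 and 1.32, 2.03 and 0.704 CPM, and Xcr1, the receptor of cross-presenting dendritic cells, had 0.921, 2.09 and 2.62 and 1.58, 1.89 and 0.469 CPM. All 3 overlapped between the genotypes. They had log2 changes of 0.64, 1.27 and -0.53, with edgeR adjusted p-values of 0.756, 0.618 and 0.784. Without SS replicate 2, Ccr7 stood at -0.09.

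Markers of those cells were low as well. The 10 T cell markers summed to 4.38 to 10.3 CPM in AS and 9.31 to 19.2 CPM in SS, the 9 NK cell markers to 4.01 to 7.83 and 4.75 to 9.93 CPM, and the 8 dendritic cell markers to 13.0 to 19.5 and 22.6 to 29.4 CPM, and edgeR called 0 of the 13 tested, with 0 at an unadjusted p under 0.05 and 0 by DESeq2 and limma-voom. Besides Cxcr2, Cxcr6 and the 3 receptor genes at 0 in all libraries, the receptors below the filter were Ccr9 (8 counts in AS and 21 in SS), Ccr10 (2 and 7), Ccr6 (0 and 2) and Ccr4, whose 9 counts were all in SS replicate 1. Xcl1, the ligand of XCR1, had 0, 8 and 0 counts in AS and 4, 5 and 6 in SS.

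Other genes of the chemokine system lie outside the symbol rule. Of 9 tested atypical receptors, platelet chemokines and modifiers, edgeR called 0 (3 at an unadjusted p under 0.05, 1 by DESeq2, 0 by limma-voom), and the median log2 change was 0.18. Ackr4, a scavenger receptor that removes CCL19, CCL21 and CCL25, had 26.6, 34.6 and 31.2 CPM in AS and 12, 9.21 and 18.5 CPM in SS. Its groups did not overlap and SS was lower (log2 change -1.22, SE 0.313, edgeR adjusted p = 0.122). Pf4, the platelet factor that carries the systematic name CXCL4, had 2.42, 1.61 and 1.80 and 4.49, 7.90 and 6.49 CPM, with SS higher and no overlap (log2 change 1.69, SE 0.456, edgeR adjusted p = 0.143). Megakaryocyte and platelet markers, of which edgeR called 0 of 1 tested (0 at an unadjusted p under 0.05 and 0 by the other tools) and Gp6 was at 0, summed to 4.26 to 7.52 CPM in AS and 3.68 to 11.5 CPM in SS, and their part in the Pf4 value was not tested.

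Of 22 tested genes that carry or regulate the signal from these receptors, edgeR, DESeq2 and limma-voom each called 0. By edgeR, 9 were at an unadjusted p under 0.05 (12.7% of all genes). In the fit 21 of them lay above 0 (56.3% of all genes), with a median of 0.61 (0.08 over all genes). Dock2, an exchange factor for Rac in leukocytes, had 2.53, 2.74 and 3.76 CPM in AS and 4.35, 11.7 and 15.2 CPM in SS (log2 change 1.79, edgeR adjusted p = 0.146). Grk5, a kinase that desensitises receptors, had 2.42, 2.58 and 2.62 and 7.92, 7.83 and 5.32 CPM (log2 change 1.46, edgeR adjusted p = 0.155). Both were higher in every SS library than in any AS library. Of 10 tested cytokines and cytokine receptors that induce chemokines, edgeR called 0 (1 at an unadjusted p under 0.05, 1 by DESeq2, 0 by limma-voom), and the median was 0.10. The interleukin 1 receptor Il1r1 had 17.5, 14.7 and 22.9 CPM in AS and 67.6, 20.0 and 123 CPM in SS, and SS replicate 2 overlapped AS (log2 change 1.93, edgeR adjusted p = 0.146). Tnfrsf1b, a receptor of tumour necrosis factor, had 29.1, 38.5 and 38.2 and 44.5, 45.8 and 67.2 CPM, without overlap (log2 change 0.57, edgeR adjusted p = 0.40). The inducers Tnf, Il6, Ifng and Il17a were below the filter, and Il17a had 0 counts.

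**Figure D5:**
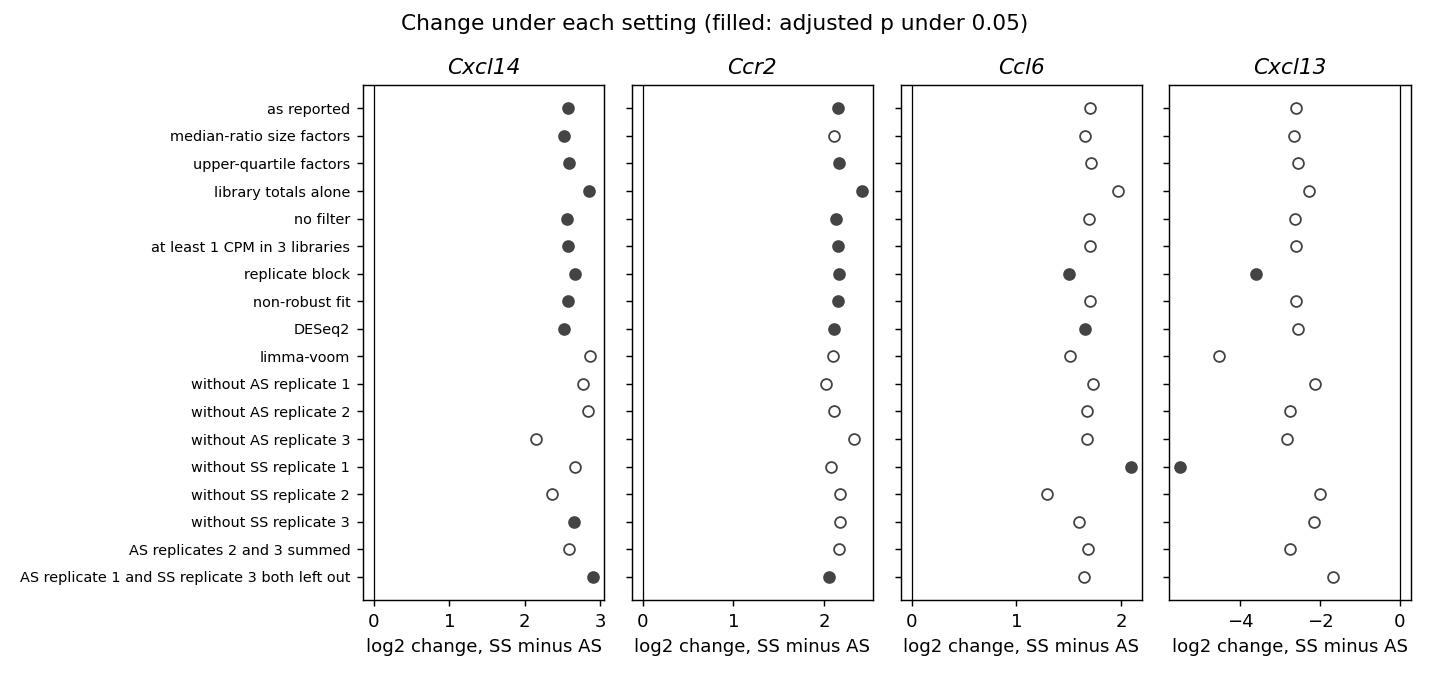
Log2 change of Cxcl14, Ccr2, Ccl6 and Cxcl13 as reported and under 17 other settings, with filled points where the adjusted p was under 0.05. No point crosses 0 in any panel, while the calls come and go with the libraries that enter the fit.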

How the data were processed

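Liver RNA-seq libraries, 3 from AS and 3 from SS mice, with no label that ties each to its own animal, were grouped by the genotype in the labels. The authors deposited raw read counts per gene, made with HISAT2 and HTSeq on mm10 per the submitters' processing notes; tool versions and the strand setting are not given in the sources used here. The 5 closing lines of the counter, which name no gene, were left out of library sizes and tests; of all lines summed, reads outside any feature made up 40.7% to 53.9% and reads aligned at several places 14.7% to 22.8%, so genes with near copies may be undercounted.

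The 24421 genes were filtered with edgeR 4.0.16 (filterByExpr, minimum count 10, minimum total 15), scaled by TMM, and tested with the robust quasi-likelihood F-test in R 4.3.3. P-values were adjusted by Benjamini-Hochberg over the 12622 genes tested, which hold 99.8% of gene reads, and genes under 0.05 were taken as called. CPM used TMM-scaled library sizes. Intervals on counts cover counting error only, at 95%, and the floor is 3 counts over a group. A multiple of the floor takes the SS counts as exact and is not a lower limit of the ratio. The fit was tested on simulated data first. With 3 against 3 libraries an exact permutation test of a single value cannot go below p = 0.1, so none was run.

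Genes named were those called, those whose groups did not overlap at an unadjusted p under 0.05, the 10 of highest CPM, the 2 of lowest p among ligands and among receptors, their partners, and the 2 of lowest p in each wider list. The other genes of the family were added for their values, except 1 that is not reported here. Genes, lists and groups were chosen with earlier results of these data known. Alternatives were other scalings and filters, a replicate block, a fit without the robust step, DESeq2 1.42.0, limma-voom (limma 3.58.1) and leaving out each library; summing AS replicates 2 and 3, and leaving out AS replicate 1 with SS replicate 3, were added after seeing the data. Loci and exon lengths came from GENCODE M21, upstream windows from RefSeq on GRCm38.p6 (42 of 58 genes matched). Replicate numbers were not treated as pairs.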

Additional observations from a re-analysis of the deposited data

How the results depend on the processing

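With 3 libraries a group and few reads for most of these genes, the calls depended on the libraries and tool used more than the fitted changes did. Over all genes, 122 were called as reported, 217 without a filter, 369 by DESeq2, 31 by limma-voom, 31 with AS replicates 2 and 3 summed, 662 once both AS replicate 1 and SS replicate 3 were removed, and 22 to 99 without single libraries. Of the chemokine genes, 2 were called as reported, 1 with median-ratio factors (Cxcl14), 3 by DESeq2 (Ccl6 added), 0 by limma-voom, 0 with AS replicates 2 and 3 summed, 4 once both AS replicate 1 and SS replicate 3 were removed (Ccr2, Ccr3, Cxcl12 and Cxcl14), and 0 to 2 without single libraries, where the 2 were Ccl6 and Cxcl13 and SS replicate 1 was left out. At an unadjusted p under 0.05, edgeR had 8 of them. Their median log2 change, 0.64 as reported, was 0.35 to 0.81 without single libraries. Scaling by library totals alone moved the median of all genes from 0.08 to 0.36. The cause of these differences was not tested.

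The labels do not say whether shared replicate numbers pair the libraries. Deviations of same-numbered AS and SS libraries from their group means correlated at 0.05, -0.12 and 0.19. AS replicates 1 and 2 correlated best with another number (SS replicates 2 and 3), and AS replicate 3 with its own. With 3 libraries a group the deviations sum to 0 within each group, so these correlations cannot decide whether libraries were paired. A fit with the replicate number as a block called 460 of all genes (3.64%) and 4 of the chemokine genes (Ccl6, Ccr2, Cxcl13 and Cxcl14), with a median log2 change of 0.39.

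Signs turned for 6 genes of small fitted change, none of them called. Without single libraries, the log2 change ran from -0.16 to 1.05 for Ccl24, -0.44 to 0.86 for Ccl5, -0.095 to 1.24 for Ccr7, -0.58 to 0.17 for Cxcl10, -0.49 to 0.94 for Cxcl11 and -0.13 to 0.31 for Cxcl9. Cxcl10 was 0.028 by library totals alone and 0.095 in the fit that lacks both AS replicate 1 and SS replicate 3. Of all fits to single tested genes under these alternatives, 427 kept their sign and their side of the threshold, 16 lost a call, 7 gained one and 9 turned sign.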

Other observations

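Most of these genes lie side by side in the genome, and neighbours did not share 1 direction in every cluster. When neighbours less than 500 kb apart were joined, 35 of the 57 genes with a locus fell into clusters of 3 or more (GENCODE M21, mm10). In the cluster of 5 CC ligand genes on chromosome 11 from 83525778 to 83664683, Ccl6 and Ccl5 had higher fitted values and Ccl9, which lies next to Ccl6, a lower one, and edgeR called 0 of the 3 (1 at an unadjusted p under 0.05, and 1, Ccl6, by DESeq2). The cluster of 6 CC ligand genes on the same chromosome from 82035571 to 82305690 held Ccl2 as its only tested gene. On chromosome 4 from 41769467 to 42773993, 3 of 5 ligand genes were at 0 in all libraries, and both tested genes, Ccl19 and Ccl27a, had lower fitted values and were not called.

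The ligands often called homeostatic, which are made without inflammation, had 6 of 11 genes tested. Cxcl14 and Ccl25 had higher fitted values, the other 4 (Ccl19, Ccl27a, Cxcl12 and Cxcl13) had lower ones, and Cxcl14 alone was called. Their summed level was 372, 384 and 387 CPM in the AS replicates and 271, 261 and 402 CPM in the SS replicates, most of it from Cxcl12.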
